A study of Mus musculus with 2 samples.

Results

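The genes described here encode the chaperones of the endoplasmic reticulum (ER) and the signaling and effector proteins of the unfolded protein response. The members were listed by gene name, with earlier results of these data known. Of 41 listed genes, 40 had an Affymetrix probe set annotated to that 1 symbol, out of 18193 genes measured in the same way, and each gene was represented by its brightest probe set, judged by the mean over the arrays. Sec61g, a small subunit of the translocon, was not measured because its 1 probe set carries another symbol as well. The RNA came from cortical tissue of naive male P4H-TM KO mice (P4h-tm-/-) and of their WT littermates, aged 2.5 months and labelled C57BL/6J. RNA of 4 mice was pooled per genotype and hybridized to 1 array each, giving 2 arrays in all. P4H-TM is a prolyl 4-hydroxylase that is anchored in the ER membrane. The tissue is whole cortex, so each value averages over all its cell types, and fewer cells of a type and less RNA per cell cannot be told apart.

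Since each genotype is 1 array of pooled RNA, differences could not be set against replicates, and neither p-values nor errors between animals are given. Values are log2 expression, and a difference is P4H-TM KO minus WT on that scale. P4htm, the targeted gene, had 9.10 in P4H-TM KO and 11.05 in WT. The difference had a median of 0.00 over all genes measured. As a yardstick, probe sets of the same gene gave differences with a pooled SD of 0.10 (5101 genes), a spread within these arrays that holds nothing of the spread between mice. Counts past a fold used the 11730 genes whose mean of both arrays reached 6.385, the median of all probe sets, and among these 95% of differences lay between −0.23 and 0.28. All 14 measured neuronal markers passed that filter, among them Camk2a, a kinase of excitatory neurons, with 14.05 in P4H-TM KO and 14.13 in WT.

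The unfolded protein response is the set of pathways by which a cell adjusts the folding capacity of its ER. Unfolded proteins in the ER lumen draw the chaperone BiP away from the sensors IRE1, PERK and ATF6. ATF6 is cleaved to an active transcription factor and IRE1 splices the mRNA of XBP1, and both factors induce chaperones, folding enzymes and the machinery of ER-associated degradation (ERAD). PERK phosphorylates eIF2α, which lowers translation in general and favors that of ATF4, the factor behind a separate set of genes for amino acid supply and stress. The translocon is the channel through which new proteins enter the ER, and it also passes calcium. Neurons, astrocytes and the secretory epithelium of the choroid plexus all rely on this machinery.

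Of the 40 measured members, 28 were higher in P4H-TM KO, 9 were lower and 3 were equal. Over all genes measured, 46.0% were higher and 49.0% lower. Of the 11730 genes above the signal filter, 5881 (50.1%) were higher and 5306 lower. The median difference of the members was 0.085. Among the 39 members above the signal filter, 7 had P4H-TM KO values 1.2-fold or more above WT, and all 7 belong to the chaperone arm. Of all genes above the filter, 2.90% did. No member was at least 1.2-fold lower, against 1.83% of those genes. No member differed by 1.5-fold in either direction, where the shares of all genes were 0.631% higher and 0.0512% lower. The arms differed in their medians, which were 0.24 for the chaperone arm, 0.105 for the sensors with XBP1, 0.01 for the ATF4 arm, 0.00 for ERAD and 0.03 for the translocon. Over the 25 members outside the chaperone arm the median was 0.03, with 14 higher and 8 lower.

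**Figure D1:**
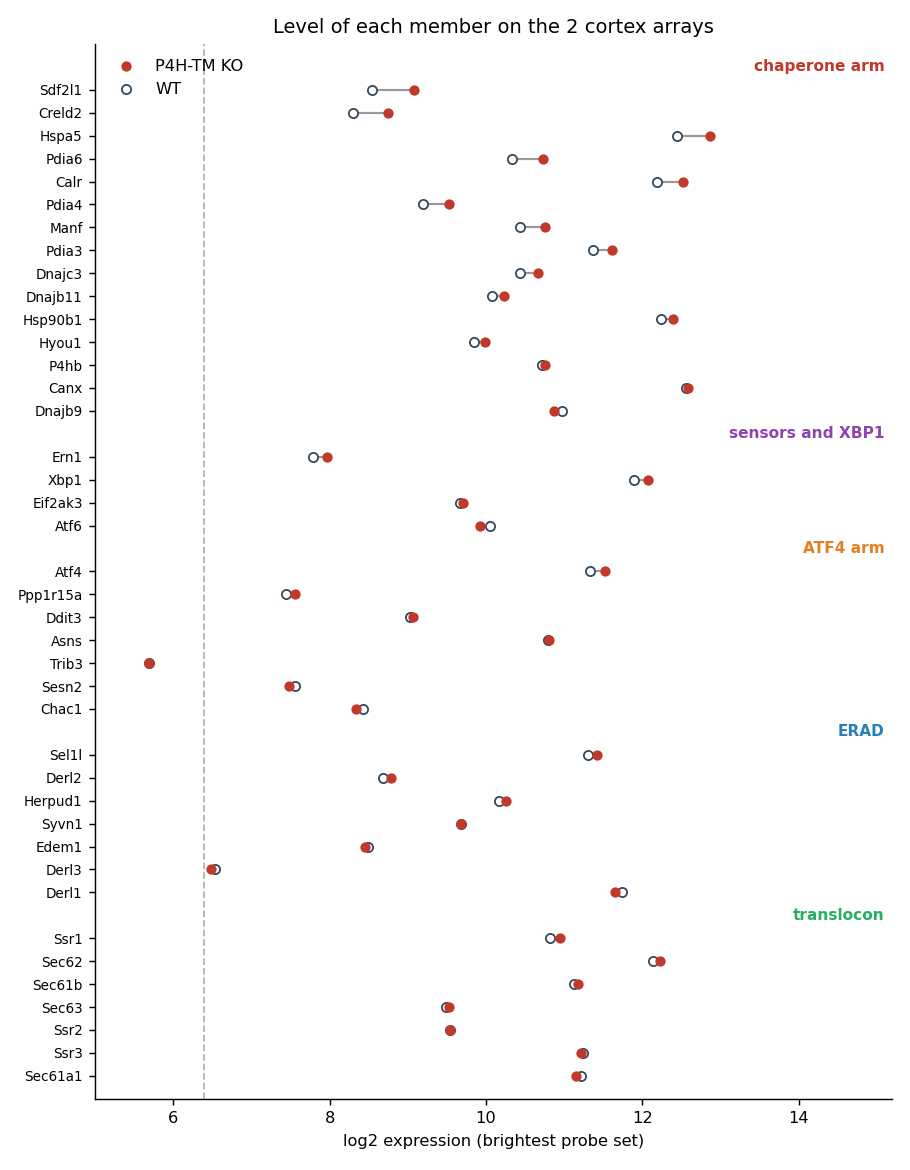
Log2 expression of each measured member on its brightest probe set in the P4H-TM KO (red points) and WT (open circles) cortex arrays, grouped by arm and sorted by the difference, with a dashed line at the signal filter of 6.385. With 1 pooled array per genotype no error bars can be drawn; the gap is widest for Sdf2l1 at the top, 9.08 in P4H-TM KO and 8.54 in WT, and Trib3, Syvn1 and Ssr2 are equal, so that the red point covers the open one.

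In the chaperone arm, 14 of 15 genes had higher values in P4H-TM KO. Sdf2l1, which encodes an ER protein that works with BiP and its J-domain partners, had 9.08 in P4H-TM KO and 8.54 in WT. This is a difference of 0.54, or 1.45-fold, and only 82 of the 11730 genes above the filter had a larger one. Creld2, an ER-resident protein induced by folding stress, had 8.74 in P4H-TM KO and 8.30 in WT, a difference of 0.44. Hspa5, the gene of BiP itself, had 12.87 in P4H-TM KO and 12.44 in WT, which is 1.35-fold higher. Its 3 probe sets were all higher, by 0.43, 0.52 and 0.04.

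The next genes by difference were folding enzymes, a lectin chaperone and a secreted factor. Pdia6, a protein disulfide isomerase, had 10.73 in P4H-TM KO and 10.33 in WT, a difference of 0.40. Its other probe set lay below the filter, at 5.37 in P4H-TM KO and 4.62 in WT. Calr encodes calreticulin, which binds both calcium and glycoproteins in the ER lumen. It had 12.52 in P4H-TM KO and 12.19 in WT, and its 3 probe sets differed by 0.33, 0.24 and 0.26. Pdia4, another disulfide isomerase, had 9.52 in P4H-TM KO and 9.19 in WT, a difference of 0.33. Its second probe set, below the filter, differed by −0.05. Manf, a stress-induced ER protein that is also secreted and protects neurons, had 10.76 in P4H-TM KO and 10.44 in WT, a difference of 0.32. These 7 genes had higher values by 1.25- to 1.45-fold.

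The other members of the arm fell short of 1.2-fold. Nearest to it was Pdia3, the disulfide isomerase that works with the lectin chaperones, with 11.61 in P4H-TM KO and 11.37 in WT. Its other probe set, also above the filter, went the other way, at −0.12. Dnajc3, a BiP cofactor that also inhibits PERK, had a difference of 0.23, and 4 of its 5 probe sets were higher. Dnajb11, Hsp90b1 and Hyou1 had differences of 0.16, 0.15 and 0.14, and encode a BiP cofactor, the ER form of HSP90 and a large relative of BiP that exchanges its nucleotide. P4hb and Canx were nearly equal, with 0.04 and 0.03. P4hb encodes a disulfide isomerase that is also the β subunit of the collagen prolyl 4-hydroxylases, and Canx encodes calnexin, the membrane-bound partner of calreticulin. The dimmer probe sets of Canx differed by 0.18 and 0.09. Dnajb9, a BiP cofactor that depends on XBP1 for its induction, was the 1 lower gene, with 10.87 in P4H-TM KO and 10.97 in WT.

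Most probe sets of this arm pointed the same way. Of its 28 probe sets above the filter, 25 had higher values in P4H-TM KO and 3 had lower ones, and of 7 genes with several such probe sets, 5 had all of them higher. Over all probe sets above the filter, 51.1% were higher. In the other arms, higher values were found for 6 of 9 probe sets of the sensors with XBP1, 6 of 9 of the ATF4 arm, 10 of 17 of ERAD and 12 of 23 of the translocon. Which probe set stands for a gene matters for the count of 7, which was 4 with the second brightest probe set, because Calr, Pdia4 and Pdia6 then were short of 1.2-fold or below the filter. Of those 4 genes, Sdf2l1, Creld2 and Manf have 1 probe set each, which was used again, so they could not change. When the probe sets of each gene were averaged it was 6, without Pdia4. The median of the arm was 0.184 with probe sets averaged.

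**Figure D2:**
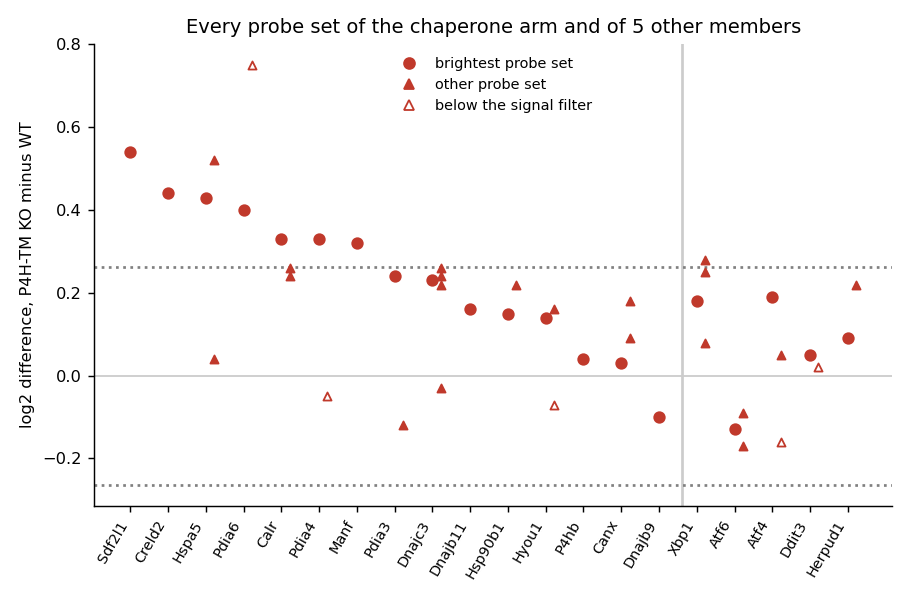
Log2 difference between the P4H-TM KO and WT arrays for every probe set of the chaperone arm and, right of the vertical line, of Xbp1, Atf6, Atf4, Ddit3 and Herpud1. Circles are the brightest probe set of a gene, triangles its other ones, open symbols lie below the signal filter and dotted lines mark 1.2-fold; the 3 probe sets of Calr lie close together, while those of Hspa5 range from 0.04 to 0.52, and all 3 of Atf6 lie below 0.

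Chaperone genes are known for the ER stress response element (ERSE) in their promoters, CCAAT and CCACG with 9 bases between them, to which ATF6 and XBP1 bind together with NF-Y. It was searched on both strands in RefSeq windows (GRCm38.p6) of 250 bases before to 50 after each gene start, which were at hand for 35 of the 41 listed genes. The exact element was found in 9 of these 35 genes, and in 37 of all 27025 genes with a window, or 0.137%. Counted by window, of which a gene can have several, it was in 0.119% of 32851. The sites are shown because they mark which members carry the element, with 12 bases on each side, read along the strand of the gene, and with the fixed letters in capitals. Sites that read CGTGG and ATTGG lie on the strand opposite to the gene. The 4 members past 1.2-fold come first, and the bracket gives the position and the strand of the gene.
Hspa5 (chr2:34772013-34772055, +): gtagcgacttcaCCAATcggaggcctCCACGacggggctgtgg
Creld2 (chr15:88819508-88819550, +): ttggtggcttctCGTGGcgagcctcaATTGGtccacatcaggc
Pdia6 (chr12:17266479-17266521, +): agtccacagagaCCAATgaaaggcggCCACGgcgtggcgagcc
Calr (chr8:84847063-84847105, -): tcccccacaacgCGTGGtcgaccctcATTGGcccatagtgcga
Dnajc3 (chr14:118937815-118937857, +): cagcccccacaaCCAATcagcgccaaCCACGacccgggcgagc
Hsp90b1, first site (chr10:86705626-86705668, -): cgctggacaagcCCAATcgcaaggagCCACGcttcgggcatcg
Hsp90b1, other site (chr10:86705521-86705563, -): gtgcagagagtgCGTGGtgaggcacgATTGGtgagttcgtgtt
Canx (chr11:50325788-50325830, -): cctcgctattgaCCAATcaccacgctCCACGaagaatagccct
Syvn1 (chr19:6046520-6046562, +): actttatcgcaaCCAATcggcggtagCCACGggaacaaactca
Derl3 (chr10:75893230-75893272, +): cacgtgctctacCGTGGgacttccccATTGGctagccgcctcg

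The 9 members with this element differed by −0.05 to 0.44. They had a median of 0.23, with 7 higher and 1 lower, and 4 of them were at least 1.2-fold higher. Of all genes above the signal filter, 2.90% were. Canx and the ERAD genes Syvn1 and Derl3 carried the exact element as well, with differences of 0.03, 0.00 and −0.05. Conversely, Sdf2l1 and Pdia4 had differences of 0.54 and 0.33 with no exact match in their windows. Within the chaperone arm the median was 0.33 over the 7 genes with the element and 0.20 over the 6 with a window but no match. Manf, with a difference of 0.32, had no window and is in neither group. A shorter form, ERSE-II, is ATTGG and CCACG with 1 base between, and 0.0365% of all windows held it. Herpud1 (chr8:94386365-94386399, +), a target of both arms, held it before its start, as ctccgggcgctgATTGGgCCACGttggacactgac. Dnajb11 held it after its start, and is among the 6 genes counted above as without a match. The XBP1 site TGACGTGG was in no member's window and in 0.676% of all windows. No match says only that these letters are not in the window.

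The genes of the sensors and of XBP1 differed by less than 1.2-fold. Xbp1 had 12.07 in P4H-TM KO and 11.89 in WT, a difference of 0.18, and all 4 of its probe sets were higher, by 0.08 to 0.28. Whether its probe sets tell the spliced from the unspliced mRNA was not examined. Ern1, which encodes IRE1α, had 7.97 in P4H-TM KO and 7.79 in WT, a difference of 0.18 as well. That was its 1 probe set above the filter, and the other 4, below the filter, ranged from −0.28 to 0.10. Eif2ak3, the gene of PERK, had 9.70 in P4H-TM KO and 9.67 in WT. Atf6 had the lowest difference of all members, with 9.92 in P4H-TM KO and 10.05 in WT, and its 3 probe sets differed by −0.13, −0.17 and −0.09. ATF6 is activated by cleavage of the protein, which arrays do not measure. The median of these 4 genes was 0.105, and −0.079 with probe sets averaged.

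The ATF4 arm showed no common direction, with 4 genes higher, 2 lower and 1 equal. Atf4 had 11.52 in P4H-TM KO and 11.33 in WT, a difference of 0.19, and 0.05 on its other probe set above the filter. ATF4 is controlled mainly at translation, so its mRNA level is a partial readout. Ddit3, which encodes the apoptosis-linked factor CHOP, had 9.07 in P4H-TM KO and 9.02 in WT. Ppp1r15a, the phosphatase subunit that reverses the phosphorylation of eIF2α, had 7.55 in P4H-TM KO and 7.44 in WT. Its difference of 0.11 rests on 1 probe set. Asns, the asparagine synthetase gene, was nearly equal, with 10.80 in P4H-TM KO and 10.79 in WT.

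The remaining ATF4 targets had equal or lower values in P4H-TM KO on their brightest probe sets. Chac1, a glutathione-degrading enzyme, had 8.33 in P4H-TM KO and 8.42 in WT, a difference of −0.09. It holds TTGCATCA, the core of the element that ATF4 shares with C/EBP factors, at chr2:119351037-119351068 on the plus strand, shown here as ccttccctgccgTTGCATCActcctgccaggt. This core was in 0.895% of all windows, and Herpud1 was the other member with it. Sesn2, a stress-induced regulator of mTORC1, had 7.48 in P4H-TM KO and 7.56 in WT, with 0.05 on its other probe set. Trib3, a pseudokinase that feeds back on ATF4, had 5.69 on both arrays. It was the 1 member below the signal filter.

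ERAD members differed by at most 0.12 in either direction, with 3 higher, 3 lower and 1 equal. Sel1l, the adaptor of the HRD1 ubiquitin ligase, had 11.42 in P4H-TM KO and 11.30 in WT. Syvn1, the gene of HRD1 itself, had 9.68 on both arrays. Derl2, a channel component of ERAD, had 8.78 in P4H-TM KO and 8.68 in WT, with 0.11 on its other probe set. Herpud1, which recruits the ligase and is among the most inducible ERAD genes, had 10.25 in P4H-TM KO and 10.16 in WT, with 0.22 on its other probe set. Edem1, a mannosidase-like protein that marks glycoproteins for degradation, had a difference of −0.04. Derl1 had the lowest value of the arm relative to WT, with 11.65 in P4H-TM KO and 11.74 in WT, and 3 of its 4 probe sets were lower. Derl3 differed by −0.05 close to the filter, at 6.48 in P4H-TM KO and 6.53 in WT. The median was 0.04 with the second brightest probe set of each gene.

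The translocon is of interest here because the study followed calcium leak through it in cultured astrocytes. In those cells it reported higher mRNA of SEC61A, SEC61B and SEC61G in P4H-TM KO, with SEC61G also higher as protein. Sec61g was not measured here. In whole cortex, 4 of its 7 measured members were higher, 2 lower and 1 equal. Sec61a1, the pore-forming subunit, had 11.15 in P4H-TM KO and 11.22 in WT. Of its 5 probe sets above the filter, 2 were higher and 3 lower, between −0.18 and 0.09. Sec61b, a small subunit of the same pore, had 11.17 in P4H-TM KO and 11.12 in WT. Sec62 and Sec63, which assist import after translation, had differences of 0.08 and 0.03. The signal sequence receptor genes Ssr1, Ssr2 and Ssr3 encode a complex beside the pore and had 0.13, 0.00 and −0.03. Ssr1, the highest of the group, had 10.95 in P4H-TM KO and 10.82 in WT, while its other 3 probe sets ranged from −0.20 to 0.05.

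**Figure D3:**
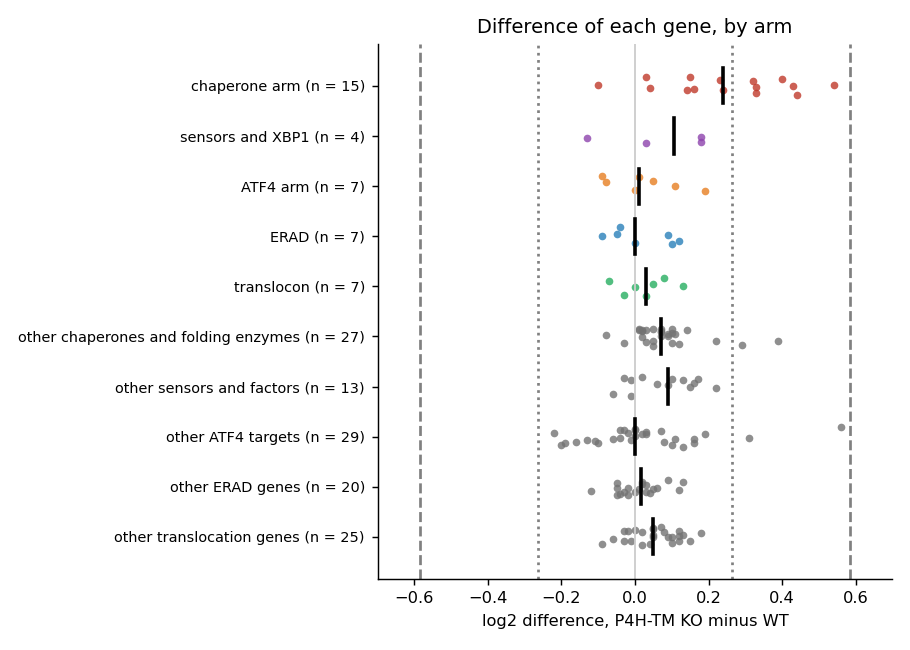
Log2 difference between the P4H-TM KO and WT arrays, with 1 point per gene, for the 5 arms (colored) and for other ER genes grouped in the same way (grey). Black bars are medians, dotted lines mark 1.2-fold and dashed lines 1.5-fold; the chaperone arm has its median at 0.24 and 7 points past 1.2-fold, and the medians of the ATF4 arm, ERAD and translocon lie between 0.00 and 0.03.

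Lists of other genes of the pathway had medians of 0.00 to 0.09. Of 27 other chaperones and folding enzymes, 25 had higher values in P4H-TM KO and 2 lower ones, with a median of 0.07. Rcn1, which encodes a calcium-binding ER protein, was the 1 gene of this list at least 1.2-fold higher above the filter. It had 8.93 in P4H-TM KO and 8.64 in WT, with −0.17 on its other probe set. Erp44, a thioredoxin-like protein that retains oxidases, followed with 0.22, and with −0.01 on its other probe set above the filter. Dnajc1 and Fkbp14 had the lowest differences, −0.08 and −0.03. However, 4 of 6 probe sets of Dnajc1 were higher, and the other of Fkbp14, below the filter, differed by 0.36. Below the filter, Pdia5 had 6.33 in P4H-TM KO and 5.94 in WT, and is named only because of that value.

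Among 13 other sensors and factors, 9 were higher and 4 lower, with a median of 0.09 that was 0.0433 with probe sets averaged. Creb3l2 and Eif2ak2 had the highest differences above the filter, 0.17 and 0.16, and Creb3 and Eif2ak4 the lowest, −0.06 and −0.03. The 29 other ATF4 targets had a median of 0.00, with 13 higher and 13 lower. Slc7a11 and Slc3a2, the subunits of the cystine/glutamate exchanger, had the highest differences above the filter. Slc7a11 had 8.36 in P4H-TM KO and 8.05 in WT, and Slc3a2 differed by 0.19. Slc7a5, another partner of Slc3a2, and Psat1, an enzyme of serine synthesis, were the lowest, at −0.20 and −0.19. Of 20 other ERAD genes, 11 were higher and 8 lower, with a median of 0.015. Rnf5 and Ngly1 had the highest differences, 0.13 and 0.12. Herpud2 had the lowest, −0.12, ahead of Selenok, Rnf139 and Aup1 with −0.05 each. Of 25 other translocation genes, 18 were higher and 6 lower, with a median of 0.05, from 0.18 and 0.15 for Srprb and Sec61a2 down to −0.06 and −0.09 for Magt1 and Sec11c. Dimmer probe sets of Creb3, Eif2ak2, Rnf139, Srprb and Magt1 went the other way, reaching 0.07, −0.03, 0.13, −0.08 and 0.11.

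The differences were also set beside those of genes of similar brightness. The chaperone arm spanned mean signals of 8.52 to 12.65, a range that held 6804 genes. The median difference of these genes was 0.01, and 1.26% of them were at least 1.2-fold higher, which is less than the 2.90% over all genes above the filter. With the trend of the difference on signal removed by loess, the median of the arm was 0.24 and the count at 1.2-fold was 7, with the same 7 genes.

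**Figure D4:**
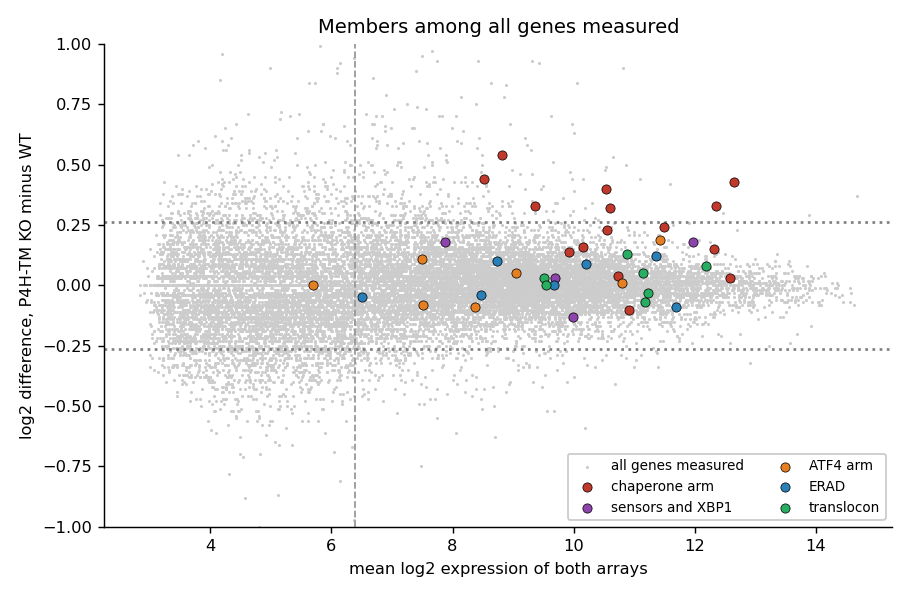
Log2 difference between the P4H-TM KO and WT arrays against the mean log2 expression of both arrays, for all 18193 genes measured (grey) and the members by arm (colored); 36 genes beyond a difference of 1 in either direction lie outside the plotted range. The dashed line is the signal filter and dotted lines mark 1.2-fold. Of the 15 red points of the chaperone arm, 7 lie above the upper dotted line. The arm spans 8.52 to 12.65 on the signal axis, where 1.26% of the 6804 genes lie above that line.

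Markers of other cell types and of neuronal activity also differed between these pools. Choroid plexus markers were higher in P4H-TM KO in 13 of 13 measured genes, and their median was 1.39. Their summed signal on the linear scale was 36914 in P4H-TM KO and 25413 in WT. Most of both sums came from Ttr, their most abundant product, so the sums say little about the other markers. Ttr had 14.86 in P4H-TM KO and 14.49 in WT, and no probe set exceeded 14.91. Its difference of 0.37 was the smallest of these markers. All 4 of its probe sets were higher, by 0.37 to 0.96. Whether its signal was saturated was not tested. Meninges markers were higher in 14 of 15 genes, with a median of 0.38 and sums of 23728 in P4H-TM KO and 18196 in WT. Here most of both sums came from Ptgds, with 14.04 in P4H-TM KO and 13.75 in WT, so they too say little about the other markers. Immediate early genes, which follow neuronal activity, were higher in 17 of 17 genes, with a median of 0.30 and sums of 24234 in P4H-TM KO and 20652 in WT. The lowest value of any probe set was 2.69, so a value above 0 does not show that a gene is expressed. Above the signal filter were 12 of 13 choroid plexus markers, 14 of 15 meninges markers and 15 of 17 immediate early genes. The choroid plexus and meninges secrete proteins, and the part of these tissues and of neuronal activity in the chaperone differences was not tested.

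The markers of oligodendrocytes, astrocytes, neurons and microglia had medians below 0. Oligodendrocyte markers were lower in 14 of 14 genes, with a median of −0.245 and sums of 73308 in P4H-TM KO and 82950 in WT. Of the astrocyte markers 2 of 14 were higher, at a median of −0.06, and neuronal markers one of −0.025, with 4 of 14 higher. Microglia markers had a median of −0.025, with 6 of 14 higher. Endothelial and mural markers had one of 0.075, with 8 of 14 higher and 4 lower, and Acta2, an actin of smooth muscle, had 10.32 in P4H-TM KO and 9.69 in WT. Blood markers had one of −0.69 over 9 genes, of which 1 passed the filter. Chaperones of the cytosol and mitochondria had a median of 0.04, with 9 of 11 higher, and Hspb1 led them with 9.58 in P4H-TM KO and 9.02 in WT.

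**Figure D5:**
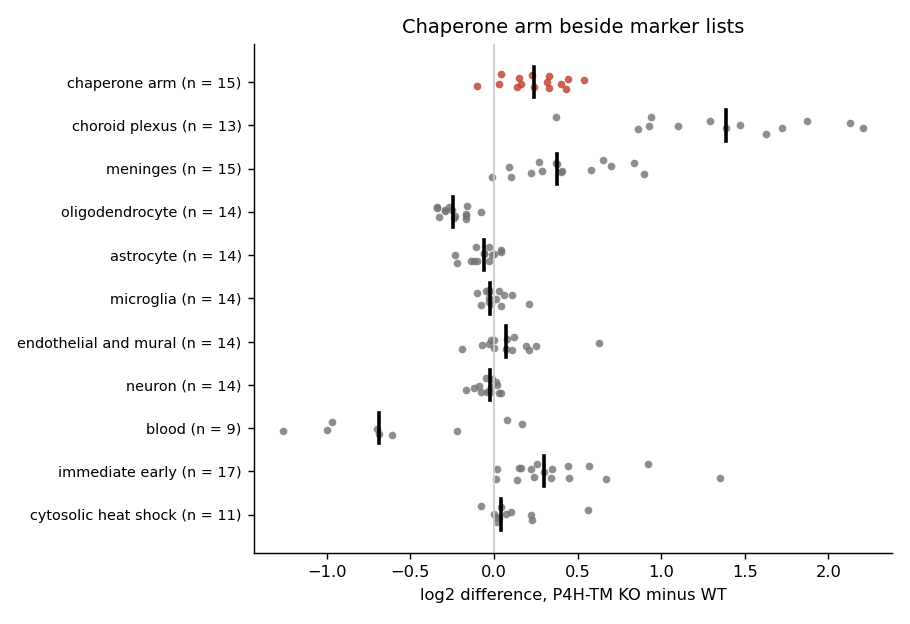
Log2 difference between the P4H-TM KO and WT arrays, with 1 point per gene, for the chaperone arm (red) and for marker lists of cell types, immediate early genes and cytosolic heat shock genes (grey). Black bars are medians, from 1.39 for choroid plexus and 0.38 for meninges to −0.245 for oligodendrocytes and −0.69 for blood; the chaperone arm lies at 0.24.

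Manf and Hyou1 are the members on chromosome 9, where P4htm lies. Counted in genes above the filter, Manf is the 44th from P4htm and Hyou1 the 391st. The neighbours of Manf in gene order, Dcaf1, Rbm15b, Dock3 and Mapkapk3, had differences of −0.08, −0.02, −0.01 and −0.05, against 0.32 for Manf itself. The other 6 chaperone genes at least 1.2-fold higher lie on other chromosomes. Manf rests on 1 probe set, and any part of its position in its difference was not tested.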

How the data were processed

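Male P4H-TM KO and WT cortex was profiled on Affymetrix Mouse Genome arrays, with RNA of 4 mice pooled per array. The authors used the GeneChip Operating System for the scans and GenePattern for normalization. RMA is named in the submitters' processing notes, and its version is not given in the sources used here. The deposited values are log2 expression per probe set, rounded to 2 decimals. They ran from 2.69 to 14.91 over 45101 probe sets, with medians of 6.39 for P4H-TM KO and 6.38 for WT. RMA draws arrays to a common distribution, so a shift of all genes would not show. The number of arrays limits the precision.

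Genes were named from the 34945 probe sets with 1 symbol in the platform annotation, and 18145 of 18193 symbols were in the RefSeq gene table of GRCm38.p6, which was used for names and gene order. Differences were taken per gene, with thresholds of 1.2-fold and 1.5-fold and no test. The members and lists were chosen with earlier results of these data known. All measured members are named. Both array values are given for members past 1.2-fold, the extremes of each arm and the main factors, and of other ER lists the 2 highest and 2 lowest above the filter. Any marker gene, neighbour of Manf or gene with an ERSE outside these was picked afterwards. Alternatives were other probe sets, centred arrays, loess (span 0.3) and other filters. A planned look at protein C-termini was not made. The summary was tested on simulated data with planted shifts and less noise between probe sets than in these arrays, which checks the code and not these differences. Tables were handled with pandas 2.3.3 and numpy 2.4.6 in Python 3.11.15, loess was from statsmodels 0.14.6, and plots were drawn in matplotlib 3.10.9.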

Additional observations from a re-analysis of the deposited data

How the results depend on the processing

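Of 112 alternatives to list medians and counts, 98 stayed within 1.5 times for counts, or for medians within the pooled SD between probe sets divided by the square root of the number of genes. The others concern the choice of probe set or the filter. A change of filter could not alter the median of a list whose genes all pass it. With probe sets averaged, the medians were 0.184 for the chaperone arm, −0.079 for sensors and XBP1, 0.0325 for all members, 0.0433 for other sensors and 0.03 for other ATF4 targets. With the second brightest probe set they were −0.035 for sensors and XBP1, 0.04 for ERAD, 0.05 for all members, 0.06 for other sensors and 0.07 for other ATF4 targets, and 4 members were at least 1.2-fold higher. Leaving out probe sets whose names end in _x_at or _s_at, the ERAD median was 0.04. Under either filter the median of other sensors was 0.06, over fewer genes. Why the probe sets of a gene disagree was not tested. Of 200 alternatives for single members, 179 stayed within the pooled SD of the main value. Many of these could not do otherwise. The choice of probe set cannot alter a gene with 1 probe set, and centring moved every member by −0.01. The sign changed in 14 alternatives of 9 genes, all from another choice of probe set. Of the 7 members past 1.2-fold this concerned Pdia4, with −0.05 on its second probe set, which is below the filter. The others were Pdia3, Ern1, Eif2ak3, Asns, Sesn2, Edem1, Ssr1 and Ssr3. The median of the chaperone arm stayed between 0.184 and 0.2413 under all 7 alternatives. Those on the filter could not change it, because all 15 genes of the arm pass the filter. Those on the probe set could not change its genes with 1 probe set. No paired analysis was possible because there is 1 array per genotype. The lack of replicate arrays limits every difference here.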

Other observations

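The exact ERSE also occurs in the promoter windows of 28 genes that are not members, of which 11 were measured. Their median difference was 0.04, with 6 higher and 5 lower in P4H-TM KO. None of the 6 above the signal filter was at least 1.2-fold higher, against 2.90% of all genes above it. At that share 6 genes are too few to tell whether they differ from all genes. Spats2l had 8.72 in P4H-TM KO and 8.56 in WT. Its other probe sets differed by 0.21, −0.04 and −0.09, with −0.04 and −0.09 below the filter. Acacb, an acetyl-CoA carboxylase, had 6.51 in P4H-TM KO and 6.37 in WT, with −0.13 on its other probe set, below the filter. Ero1b, an oxidase that recharges protein disulfide isomerases, had 9.05 in P4H-TM KO and 8.93 in WT. Its 3 probe sets were all higher, by 0.12, 0.23 and 0.15, but those with 0.23 and 0.15 lie below the filter. Adcy3, Pan2 and Alg12 were lower, with differences of −0.07, −0.14 and −0.14. The other probe sets of Adcy3 differed by −0.01, 0.07 and −0.04, the last below the filter.

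Alg12, which encodes a mannosyltransferase of N-glycan assembly, is the direct neighbour of Creld2 on chromosome 15 and is read from the opposite strand. The windows of both genes hold the same ERSE site, chr15:88819520-88819538, which lies at −126 to −108 relative to the start of Creld2 and at −220 to −202 relative to that of Alg12. Creld2 had 8.74 in P4H-TM KO and 8.30 in WT, whereas Alg12 had 6.79 in P4H-TM KO and 6.93 in WT. All 3 probe sets of Alg12 were lower, with −0.14, −0.13 and −0.08, the last 2 below the signal filter. These genes were picked out after their values were seen.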
